A study of Mus musculus with 4 samples.

Results

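The mRNAs of the cyclins, the cyclin-dependent kinases (CDKs), the CDK inhibitors and the proteins named after them were followed in RNA that was immunoprecipitated from mouse germ cells with TSSK2, a testis-specific serine kinase. They were chosen by symbol: Cdk or Cdkn followed by a digit, or Ccn followed by a letter, in the mouse annotation GENCODE vM21. Earlier results of these data were known when this choice was made. The symbol rule found 65 genes, all protein coding, among the 21936 gene identifiers counted. TSSK2 resides in the late chromatoid body (late-CB), a cytoplasmic RNA granule of elongating spermatids, and the comparison of TSSK2-IP with control IgG-IP asks which mRNAs are found with it. Adult C57BL/6 mice were used, and no allele or drug distinguished the groups. Germ cells were released from the testes with collagenase, cross-linked in paraformaldehyde, lysed and sonicated, and the low-speed pellet was incubated with a mouse anti-TSSK2 antibody (TSSK2-IP) or with mouse IgG (control IgG-IP). Each group held 2 libraries. The sources do not tie the libraries to separate animals, so the p-values measure the spread between these libraries, which may be technical.

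A cyclin is the regulatory subunit that switches on a CDK. Cyclins A, B, D and E with CDK1, CDK2, CDK4 and CDK6 drive the cell cycle, and in the testis they act in the mitotic divisions of spermatogonia and in meiosis, with cyclin A1 needed by late spermatocytes. A separate set, which includes cyclins C, H, K, L and T with CDK7, CDK8, CDK9, CDK12 and CDK13, acts on RNA polymerase II and on RNA processing. INK4 proteins inhibit CDK4 and CDK6, whereas CIP/KIP proteins inhibit a wider range of CDKs. Spermatids no longer divide, and many of their mRNAs are made early and stored until they are translated.

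The libraries held 3938922 to 9858941 counts, and a single count was worth 0.156 to 0.230 CPM, the normalized count scaled to library size. The share of counts that fell on cyclin and CDK genes was 0.389% and 0.386% with TSSK2 and 0.381% and 0.344% with IgG. Germ cell markers dominated, as the summed level of 10 spermatid markers was 4522 to 4893 CPM in TSSK2-IP and 5799 to 11766 CPM in control IgG-IP, and that of 7 spermatocyte markers 1668 to 1930 and 2240 to 4932 CPM. Sums of 7 spermatogonial markers (36.2 to 45.0 and 33.5 to 55.4 CPM) and of 7 Sertoli cell markers (37.3 to 51.2 and 16.7 to 42.0 CPM) were low. The 5 Leydig cell markers summed to 34.6 to 35.5 CPM in TSSK2-IP, above the 14.4 to 33.3 CPM in control IgG-IP, and their part in the results was not tested. Peritubular, macrophage and red blood cell markers summed to at most 26.2 CPM in any library, and no marker was at 0 in every library. These sums describe RNA recovered in an immunoprecipitation. The number of cells of a type, the RNA per cell and the recovery of that RNA cannot be told apart in them.

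No cyclin or CDK gene passed the test between TSSK2-IP and control IgG-IP. Of the 65 genes, 63 had enough counts to be tested with the quasi-likelihood method of edgeR, adjusted over 14722 genes by Benjamini-Hochberg, and 0 of them met both thresholds. These were an adjusted p of at most 0.05 and a log2 fold change that was 1 or more in size. Among all genes tested, 0.693% passed as higher in TSSK2-IP and 0% as lower. The lowest adjusted p of any cyclin or CDK gene was 0.249 in this edgeR test. At an unadjusted p under 0.05 there were 6 higher genes, against 8.34% of all genes, and 3 lower genes, against 4.89%, which is 9.52% and 4.76% of the 63. DESeq2 also called 0 of the 65 genes, beside 160 higher and 1 lower among 21267 genes. At an unadjusted p under 0.05 it gave 2 higher and 4 lower, for which no share of all genes was taken. The smallest p that 2 against 2 libraries allow in a two-sided exact permutation test is 0.333, so all p-values here come from a fit that borrows information on the spread from the other genes. The untested genes were Cdk2ap2, with 5 to 17 counts in a library, and Cdk5r2, with 3 to 18.

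Fitted fold changes ranged from -1.68 to 1.71 on the log2 scale, with a median of 0.12 beside -0.02 over all genes tested, and 35 of 63 were above 0 (31 with DESeq2's size factors). Fold changes of at least 1 were fitted for 8 genes (12.7%, against 11.1% of all genes) and of -1 or below for 4 (6.35%, against 9.88%). The TSSK2-IP libraries were higher than both controls for 23 genes, which is 36.5% of the 63 against 27.3% of all genes, and lower than both for 9, which is 14.3% against 21.6%. The groups overlapped for the other 31. Any margin counted in this order, for all genes too. Cdk9 was among the 23 with 26.45 CPM in TSSK2-IP replicate 2 and 26.423 CPM in control replicate 2. No gene had each TSSK2-IP library at least 2-fold above or below each control library, whereas 4.01% and 0.312% of all genes did. By role, the median log2 fold change was -0.42 in the CIP/KIP inhibitors with Cdkn3, -0.33 in the cell-cycle cyclins, 0.58 in the cell-cycle kinases, 0.62 in the INK4 inhibitors and 0.76 in the cyclins of transcription and RNA processing. Differences between roles were not tested, and the control libraries moved these medians. The median of the CIP/KIP inhibitors with Cdkn3 turned to 0.35 without control replicate 2. The cyclins of transcription and RNA processing had 0.42 without control replicate 1, below the 0.79 of the cell-cycle kinases, and 1.12 without replicate 2, below the 1.37 of the INK4 inhibitors.

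**Figure D1:**
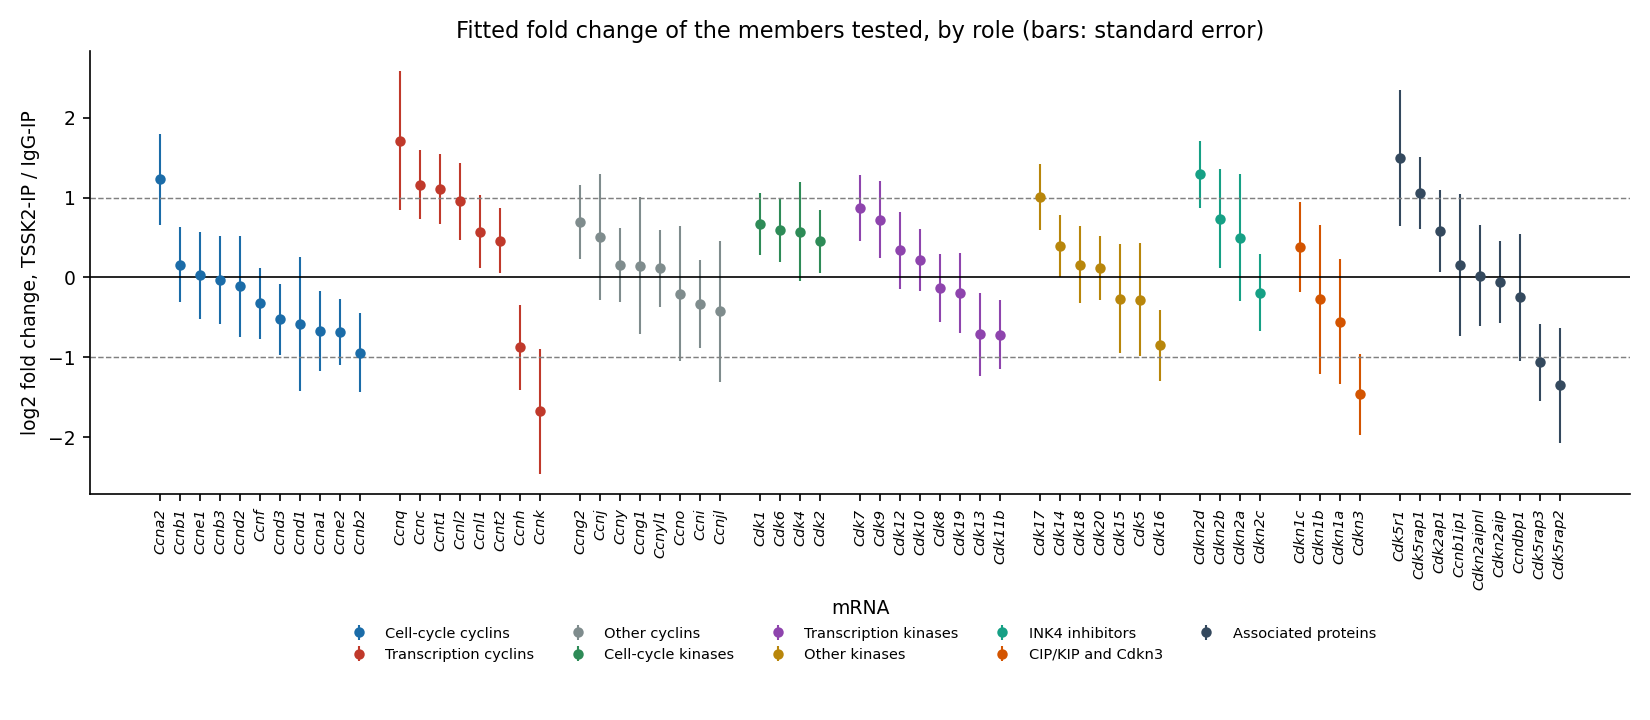
Fitted log2 fold change of TSSK2-IP over control IgG-IP (vertical axis) for the 63 cyclin and CDK genes tested, grouped by role along the horizontal axis, from 2 libraries a group. Points are edgeR estimates, and bars are 1 standard error, worked out from the fold change and its test statistic. Dashed lines mark a 2-fold difference, and the values run from -1.68 (Ccnk) to 1.71 (Ccnq).

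The control libraries differed from each other far more than the TSSK2-IP libraries did. Between the controls, 29 of the 63 genes (46.0%) differed at least 2-fold, with 14 higher in replicate 1 and 15 higher in replicate 2. Between the TSSK2-IP libraries, 1 gene (1.59%) did. Over all genes tested the shares were 40.8% and 4.95%. The median size of the log2 difference was 0.91 between the controls and 0.22 between the TSSK2-IP libraries, so the spread that the fold changes were tested against came mostly from the controls.

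**Figure D2:**
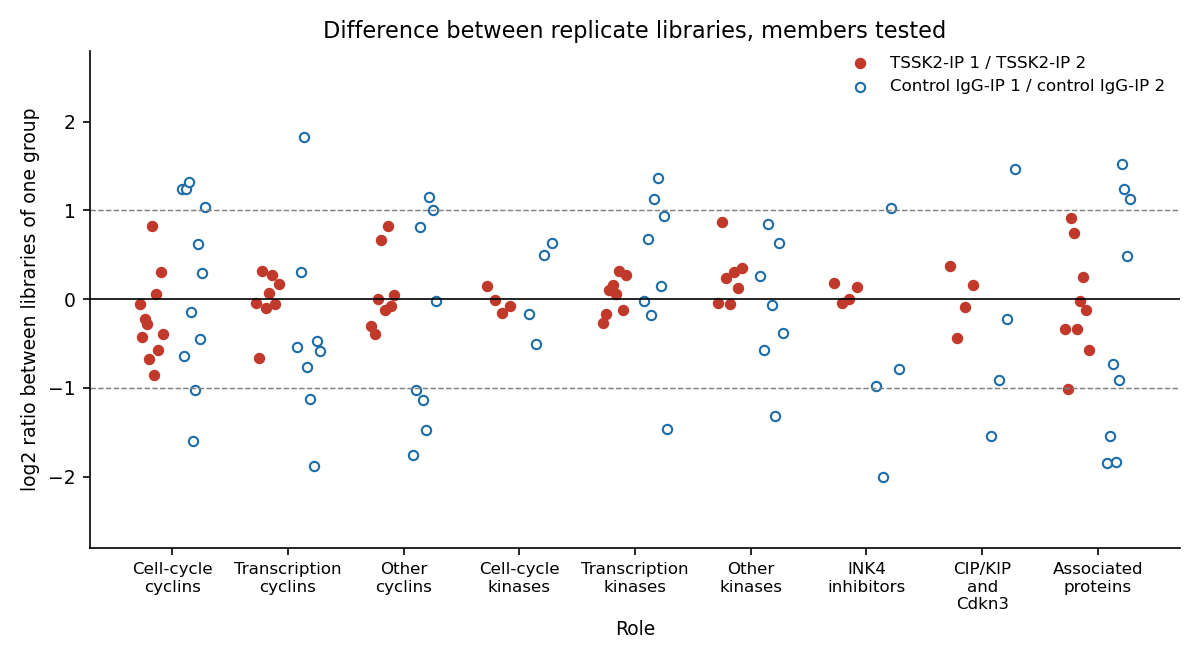
log2 ratio between the 2 replicate libraries of a group (vertical axis) for each cyclin and CDK gene tested, by role (horizontal axis). Filled points are TSSK2-IP replicate 1 over 2, open points control IgG-IP replicate 1 over 2, and dashed lines mark a 2-fold difference; 29 open points and 1 filled point lie on or beyond them.

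Leaving out a control library decided which genes were called. With control IgG-IP replicate 1 left out, 3 genes passed both thresholds as higher (Cdk6, Cdk7 and Cdk17, among 5.38% of all genes) and 0 as lower (2.56% of all genes). With replicate 2 left out, 11 passed as higher (17.9% of all genes) and 10 as lower (17.4%). The higher genes then were Ccna2, Ccnc, Ccng2, Ccnl2, Ccnq, Ccnt1, Cdk5r1, Cdk5rap1, Cdk9, Cdkn2b and Cdkn2d, and the lower genes were Ccna1, Ccnb2, Ccnh, Ccnk, Cdk11b, Cdk13, Cdk16, Cdk5rap2, Cdk5rap3 and Cdkn3. These genes are listed because of the calls, some of them outside the rule for naming genes. The lone control in these fits was assumed to vary like the TSSK2-IP libraries. Without either TSSK2-IP library, 0 genes were called, and 0 had an unadjusted p under 0.05 in either direction in edgeR's test.

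Levels of different genes were compared per kilobase of annotated exon. Ccnk, the cyclin partner of CDK12 and CDK13, had the highest level in both groups, at 96.0 ± 15.1 CPM per kb with TSSK2 and 307 ± 243 with IgG (SD, n = 2). Ccni, an atypical cyclin, followed in TSSK2-IP with 60.9 ± 0.0757 CPM per kb, and then Ccna1 with 50.2 ± 1.39. Ccna1 and Ccni lay next to each other in control IgG-IP at 79.9 ± 45.9 and 76.5 ± 29.6, a difference well inside their spread. At the low end in TSSK2-IP were Cdkn1b, encoding the inhibitor p27, at 0.389 ± 0.0997 CPM per kb, the untested Cdk5r2, encoding the CDK5 activator p39, at 0.417 ± 0.276 and Ccnd1, a cyclin of the G1 phase, at 0.534 ± 0.241. These 3 levels lay within their spread of each other. Ccni, Cdk5r2 and Ccnd1 are named here for their rank, after their values were seen. Near-identical sequence elsewhere in the genome can move counts between genes, and 9 of the 65 genes had at least 150 bases that matched another annotated gene at 97% identity or more.

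**Figure D3:**
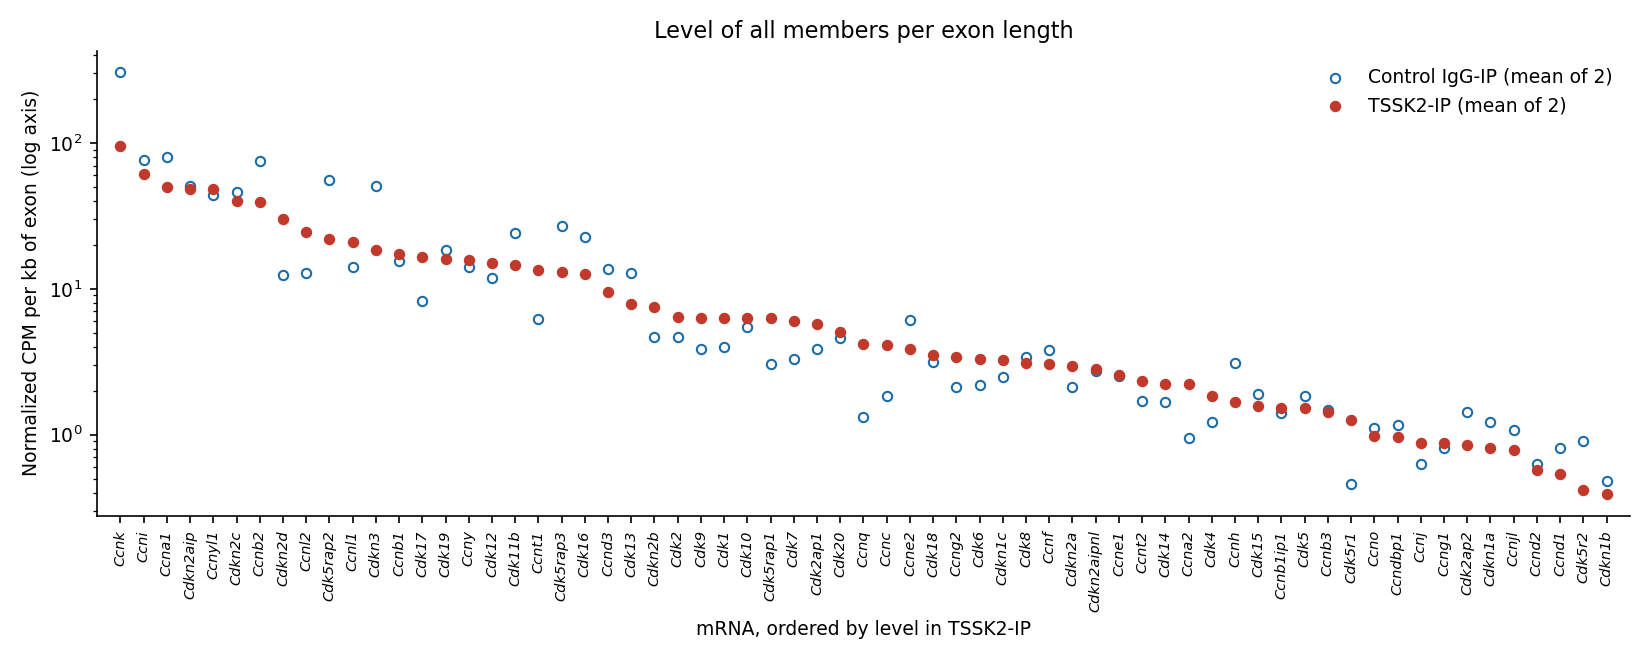
Mean level of all 65 genes as normalized CPM per kilobase of exon (vertical axis, logarithmic), ordered by the TSSK2-IP level along the horizontal axis. Filled points are means of 2 TSSK2-IP libraries and open points means of 2 control IgG-IP libraries; Ccnk is highest in both groups, at 96.0 and 307 CPM per kb.

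Short sequence elements near the 3′ end of mRNAs take part in translational control in germ cells. The last 200 bases of the annotated 3′ UTR were therefore searched on the sense strand. The strings were TTTTAT, a form of the cytoplasmic polyadenylation element, and TGTANATA, the Pumilio element. Other forms of these elements were not searched. A window was available for 60 of the 65 genes. TTTTAT was found in 19 (31.7%) of them and in 23.6% of the 12410 tested genes with a window. TGTANATA was found in 3 (5.00%), against 7.95%, and the polyadenylation signal AATAAA in 42 (70.0%), against 68.6%. On the log2 scale, the median fold change was 0.38 for the tested genes with TTTTAT and 0.02 for those without it, beside 0.14 and -0.04 over all genes. These matches are descriptions of letters in a window and do not show a bound site. The following stretches come from the GRCm38 transcripts of GENCODE vM21, for genes with an unadjusted p under 0.05 that hold either element, with the element in capitals and 10 bases on each side.
Cdkn2d, 3′ UTR, chr9:21288427-21288452, minus strand: tgtgtgattaTTTTATgttttggccc
Ccnt1, 3′ UTR, chr15:98538773-98538798, minus strand: attgtatacaTTTTATagtctggcta
Cdk17, 3′ UTR, chr10:93241171-93241196, plus strand: tgtcagctggTTTTATgttaagccct
Ccna2, 3′ UTR, chr3:36564877-36564904, minus strand: tatatatgtgTGTAAATAaagcatgcaa
Ccnk, 3′ UTR, chr12:108203233-108203260, plus strand: tgcaaagtctTGTACATAgagagatatt
The elements began 33, 100, 148, 30 and 117 bases before the annotated end, in this order. The Ccna2 element shares letters with the AATAAA signal of the same mRNA. TTTTAT was also found in genes with lower values in TSSK2-IP that are not shown, such as Ccnb2 and Cdk13, with log2 fold changes of -0.94 and -0.71. The Pumilio element was present in Ccna2 and Ccng2, with higher values, and in Ccnk, with lower ones. Ccnb1, encoding cyclin B1, had neither TTTTAT nor TGTANATA in this window, and other forms were not searched.

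All 8 cyclins of transcription and RNA processing were tested, and the TSSK2-IP libraries did not overlap the controls for any of them. They lay above both controls for 6, beside 27.3% of all genes, and below both for 2, beside 21.6%. Ccnc encodes cyclin C, the partner of CDK8 and CDK19 in the Mediator kinase module. Ccnc was at 20.7 and 21.3 CPM in TSSK2-IP replicates 1 and 2 and at 7.65 and 11.3 CPM in control IgG-IP replicates 1 and 2. Both TSSK2-IP values were above both controls, with a log2 fold change of 1.16 ± 0.43 (SE) and an edgeR adjusted p of 0.292. The kinases that cyclin C binds did not follow it, as Cdk8 stood at -0.13 and Cdk19 at -0.20 on the log2 scale, each with overlapping groups. These 2 kinases were picked after their values were seen.

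Ccnt1 encodes cyclin T1, which with CDK9 forms the elongation factor P-TEFb. Its level was 121 and 125 CPM in TSSK2-IP and 47.7 and 66.2 CPM in control IgG-IP. The TSSK2-IP libraries nearly coincided and lay above both controls, with a log2 fold change of 1.11 ± 0.44 and an edgeR adjusted p of 0.315. The estimate was 0.95 without control replicate 1 and 1.30 without control replicate 2. Only the latter passed the fold threshold. For the other subunits the differences were smaller, at 0.46 for Ccnt2 (cyclin T2; edgeR adjusted p = 0.620) and 0.72 for Cdk9 (edgeR adjusted p = 0.506). Cdk9 was at 32.1 and 26.4 CPM in TSSK2-IP and at 9.36 and 26.4 CPM in control IgG-IP. Control replicate 2 thus equalled TSSK2-IP replicate 2 at this precision, and control replicate 1 was the low library. The estimate for Cdk9 was 0.20 without control replicate 1 and 1.57 without replicate 2.

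Ccnk went the other way. It was at 324 and 259 CPM in TSSK2-IP and at 1456 and 411 CPM in control IgG-IP. Both TSSK2-IP libraries were below both controls, but control replicate 1 was 3.55-fold above control replicate 2, more than any TSSK2-IP library differed from replicate 2. The log2 fold change was -1.68 ± 0.78 with an edgeR adjusted p of 0.377. With all 4 libraries, DESeq2 gave -1.82 with an adjusted p of 0.148. Taking the replicate number as a block in edgeR gave -1.415 with an adjusted p of 0.693. The edgeR estimate was -0.44 without control replicate 1 and -2.39 without replicate 2. Its kinases Cdk12 (0.34) and Cdk13 (-0.71), named after their values were seen, differed in sign on the log2 scale.

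Of the remaining transcription cyclins, also named after their values were seen, Ccnl1 and Ccnl2 encode cyclins L1 and L2, which bind CDK11 and act in pre-mRNA splicing. Ccnl2 was at 133 and 127 CPM in TSSK2-IP and at 42.3 and 92.4 CPM in control IgG-IP, and Ccnl1 had the same order with a log2 fold change of 0.57. The kinase gene Cdk11b lay below both controls, at 51.8 and 58.2 CPM against 111 and 69.4 CPM (log2 fold change -0.72 ± 0.43, edgeR adjusted p = 0.468). For Cdk11b the estimate was -0.28 without control replicate 1 and -1.09 without replicate 2. Ccnq, encoding the partner of CDK10, had the highest fitted log2 fold change, 1.71 ± 0.87, on few counts. It had 27 and 24 counts in TSSK2-IP and 3 and 12 in control IgG-IP, and its edgeR adjusted p was 0.403.

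CDK7, cyclin H and MAT1 form the CDK-activating kinase, which also belongs to the transcription factor TFIIH. Cdk7 was at 24.7 and 19.8 CPM in TSSK2-IP and at 12.8 and 11.5 CPM in control IgG-IP. The controls agreed closely here and lay below both TSSK2-IP libraries, with a log2 fold change of 0.87 ± 0.41 and an edgeR adjusted p of 0.385. Ccnh, named after its values were seen, was at 3.94 and 6.47 CPM in TSSK2-IP and at 10.6 and 8.50 CPM in control IgG-IP, a log2 fold change of -0.87. Mnat1, the gene of MAT1, was at 30.3 and 31.2 CPM in TSSK2-IP and at 8.89 and 10.3 CPM in control IgG-IP. Each of its TSSK2-IP values was over 2-fold above each control, an order that 4.01% of all genes showed at 2-fold or more. Its log2 fold change was 1.68 ± 0.41 with an edgeR adjusted p of 0.098. The 3 subunit mRNAs thus stood at 1.68, 0.87 and -0.87, none past both thresholds. Across the 8 transcription kinases the median was 0.04, with 4 values above 0 and 4 below.

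**Figure D4:**
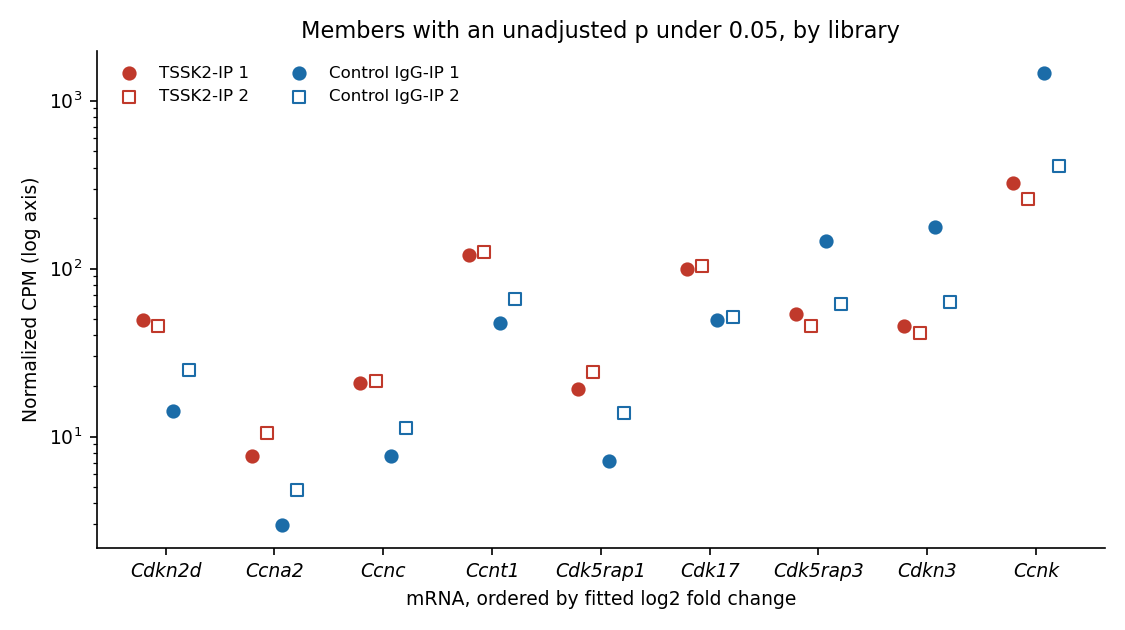
Normalized CPM (vertical axis, logarithmic) in each of the 4 libraries for the 9 cyclin and CDK genes with an unadjusted p under 0.05, ordered by fitted log2 fold change along the horizontal axis. Circles are replicate 1 and squares replicate 2 of TSSK2-IP (red) and control IgG-IP (blue); the controls lie close together for Cdk17 (49.1 and 51.5) and far apart for Ccnk (1456 and 411).

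Among the 11 cell-cycle cyclins, 3 log2 fold changes were above 0 and 8 below, beside 7243 and 7479 of the 14722 genes tested. The groups overlapped for 8, beside 7520 of all genes. Ccna2 encodes cyclin A2, the cyclin A of mitotic cells. It was low, at 7.67 and 10.5 CPM in TSSK2-IP and 2.96 and 4.83 CPM in control IgG-IP. Both TSSK2-IP values were above both controls, with a log2 fold change of 1.23 ± 0.57 and an edgeR adjusted p of 0.374. Exons of Ccna2 overlap those of another gene on the opposite strand, as do those of 24 of the 65 genes (Ccnc, Ccnt1 and Cdk17 included), and whether the counting used strand was not given in the sources used here.

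Ccna1, the meiotic cyclin A, was at 90.4 and 94.0 CPM in TSSK2-IP and at 206 and 87.1 CPM in control IgG-IP. Control replicate 1 was more than 2-fold above the other 3 libraries, which lay together. The log2 fold change was -0.67 ± 0.51 (edgeR adjusted p = 0.556), and it turned to 0.14 without control replicate 1. Ccnb2, encoding the M-phase cyclin B2, had the same shape, with 54.1 and 65.8 CPM in TSSK2-IP and 165 and 65.5 CPM in control IgG-IP (log2 fold change -0.94 ± 0.49, edgeR adjusted p = 0.413). Its estimate was -0.07 without control replicate 1 and -1.52 without replicate 2. Ccnb1 was at 67.8 and 79.0 CPM against 92.2 and 38.8 CPM, so that the controls lay on either side of TSSK2-IP. Its log2 fold change of 0.16 ± 0.47 turned to -0.40 without control replicate 2. Pseudogenes of Ccnb1 share near-identical sequence with it. The log2 fold changes of Ccnb3, a cyclin B of meiosis, and Ccnd2, a cyclin of dividing spermatogonia, were -0.03 ± 0.55 and -0.11 ± 0.63. Neither mRNA was above 8.18 CPM in any library.

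The 4 cell-cycle kinases all had both TSSK2-IP libraries above both controls, an order that 27.3% of all genes showed, with a median log2 fold change of 0.58. Cdk1, the M-phase kinase, was at 33.0 and 29.7 CPM in TSSK2-IP and at 18.6 and 20.9 CPM in control IgG-IP. Its log2 fold change was 0.67 ± 0.39 with an edgeR adjusted p of 0.459. Cdk2, which is needed in meiosis, was at 39.6 and 40.0 CPM against 24.0 and 34.2 CPM, with 0.45 ± 0.40 and 0.616 for the same quantities. Cdk6, a partner of the D cyclins, was at 45.0 and 47.6 CPM against 37.3 and 23.9 CPM. Its estimate of 0.59 ± 0.40 (edgeR adjusted p = 0.516) became 1.01 without control replicate 1 and 0.24 without replicate 2. Cdk4, named after its values were seen, was at most at 6.28 CPM in any library, with a log2 fold change of 0.58.

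Of the INK4 inhibitors, Cdkn2d had the smallest unadjusted p of the 63 cyclin and CDK genes. It encodes p19INK4d, which in the testis is known from meiotic germ cells. It was at 49.8 and 45.3 CPM in TSSK2-IP and at 14.2 and 24.8 CPM in control IgG-IP. Both TSSK2-IP values were above both controls, with a log2 fold change of 1.29 ± 0.42 and an edgeR adjusted p of 0.249. The estimate was 0.99 without control replicate 1 and 1.67 without replicate 2, so the fold threshold was missed narrowly in the former. Cdkn2c, encoding p18INK4c, was at 108 and 108 CPM in TSSK2-IP and lay between the controls at 165 and 80.9 CPM (log2 fold change -0.19 ± 0.48). Cdkn2b, encoding p15INK4b, was at 10.4 and 10.7 CPM in TSSK2-IP and at 2.34 and 10.6 CPM in control IgG-IP, so that control replicate 2 equalled TSSK2-IP.

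Among the CIP/KIP inhibitors and Cdkn3, the lowest value belonged to Cdkn3, which encodes a phosphatase that removes the activating phosphate from CDKs. It was at 45.8 and 41.1 CPM in TSSK2-IP and at 176 and 63.4 CPM in control IgG-IP. Both TSSK2-IP libraries were below both controls, with a log2 fold change of -1.46 ± 0.51 and an edgeR adjusted p of 0.268. The estimate was -0.49 without control replicate 1 and -2.09 without replicate 2. Cdkn1a (p21) and Cdkn1b (p27) reached at most 6.66 CPM in any library and overlapped between groups, with log2 fold changes of -0.56 ± 0.78 and -0.28 ± 0.93.

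Cdk17, a kinase of the PCTAIRE family, had the closest control libraries of the 9 genes with an unadjusted p under 0.05. It was at 99.5 and 103 CPM in TSSK2-IP and at 49.1 and 51.5 CPM in control IgG-IP. Each group was tight and the TSSK2-IP level was about 2-fold higher, with a log2 fold change of 1.01 ± 0.41 and an edgeR adjusted p of 0.331. Its estimate stayed between 0.97 and 1.03 whichever library was left out. Cdk16, of the same family and needed for spermatid differentiation, was at 59.7 and 50.6 CPM in TSSK2-IP and at 128 and 71.0 CPM in control IgG-IP. It lay below both controls, with a log2 fold change of -0.85 ± 0.45 and an edgeR adjusted p of 0.413. Without control replicate 1 the estimate was -0.31 and without replicate 2 it was -1.28. Cyclin Y and its relative, which activate CDK16 and CDK14, showed little difference, with log2 fold changes of 0.16 ± 0.46 for Ccny and 0.12 ± 0.48 for Ccnyl1. The 4 values of Ccnyl1 ran from 152 to 168 CPM, and near-identical sequence elsewhere can share its reads. Of the other atypical cyclins, Ccng2 (cyclin G2) had a log2 fold change of 0.69 ± 0.47 and Ccnj (cyclin J) of 0.50 ± 0.79.

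The proteins that bind CDKs or cyclins were as divided. Cdk5rap1, encoding an enzyme that modifies mitochondrial tRNAs, was at 19.1 and 24.2 CPM in TSSK2-IP and at 7.18 and 13.8 CPM in control IgG-IP (log2 fold change 1.06 ± 0.46, edgeR adjusted p = 0.350). Cdk5rap3, encoding a component of protein ufmylation, was at 53.9 and 45.3 CPM against 146 and 61.3 CPM (-1.06 ± 0.48, edgeR adjusted p = 0.364). The former lay above both controls and the latter below both, and in each the controls differed more than the TSSK2-IP libraries. Without control replicate 1, the log2 fold change was 0.71 for Cdk5rap1 and -0.25 for Cdk5rap3, and without replicate 2 it was 1.52 and -1.62. Cdk5r1, encoding the CDK5 activator p35, was at 6.63 and 3.81 CPM in TSSK2-IP and at 0.624 and 3.22 CPM in control IgG-IP. Ccnb1ip1, encoding the meiotic crossover factor HEI10, was at most at 4.37 CPM in any library, with a log2 fold change of 0.16 ± 0.89 that ran from -0.55 to 1.52 when libraries were left out.

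A list of 42 other cell-cycle regulators, chosen for acting with cyclins and CDKs under other names, also held no gene past both thresholds. Of the 40 tested, 0 passed in either direction in edgeR's test, beside 0.693% of all genes as higher and 0% as lower. At an unadjusted p under 0.05, 4 were higher (10%, against 8.34% of all genes) and 4 lower (10%, against 4.89%). Their median log2 fold change was -0.19, with 16 values above 0 and 24 below, beside a median of 0.12 for the cyclin and CDK genes and -0.02 over all genes. No test compared these lists. Besides Mnat1, the smallest p-values among higher genes belonged to Mad2l1, of the spindle checkpoint (1.75 ± 0.44, edgeR adjusted p = 0.104), and Cks2, a CDK-binding subunit needed in meiosis (1.54 ± 0.57, edgeR adjusted p = 0.291). Mad2l1 was at 36.3 and 23.0 CPM in TSSK2-IP and at 7.96 and 9.65 CPM in control IgG-IP. Each TSSK2-IP library was thus over 2-fold above each control. Of the 40 tested, 2 (Mad2l1 and Mnat1) were so separated, beside 4.01% of all genes. Among lower genes they belonged to Ttk, a spindle checkpoint kinase (-1.60 ± 0.54, edgeR adjusted p = 0.260), E2f4, a repressor that acts with retinoblastoma proteins (-1.27 ± 0.46, edgeR adjusted p = 0.278), and Cables2 (-1.17 ± 0.47, edgeR adjusted p = 0.321). Ttk was at 44.2 and 38.8 CPM in TSSK2-IP and at 194 and 57.9 CPM in control IgG-IP, with control replicate 1 again standing apart. The controls also differed for E2f4 (48.5 and 21.1 CPM in replicates 1 and 2) and Cables2 (54.5 and 22.5 CPM). For Cks2 they were at 4.21 and 20.7 CPM, so control replicate 1 was the low library there.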

How the data were processed

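Per the labels and the study's methods, the authors made the counts with Trimmomatic 0.39 (trimming), STAR (mapping to GRCm38) and featureCounts 2.0.3 (counting per gene). The submitters' processing notes give STAR 2.7.10a. The deposited values are raw, unnormalized counts of 4 libraries, with 2 libraries per group. Groups and replicate numbers came from the sample titles. Of 21936 identifiers, 21894 were found in GENCODE vM21. Members and lists were chosen with earlier results of these data known. The rule for naming genes took members past both thresholds or with an unadjusted p under 0.05, the 2 smallest p-values of each role, 18 genes with known germ cell roles or as partners of one another and, of the other regulators, the 3 smallest p-values in each direction. It named 32 members.

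Counts were fitted in R 4.3.3 with edgeR 4.0.16 (filterByExpr, TMM, glmQLFit, glmQLFTest) on 14722 genes and adjusted by the Benjamini-Hochberg method. Fold changes were called at a log2 value of at least 1 in size and an adjusted p of at most 0.05. Standard errors in edgeR were worked out as the size of the log2 fold change divided by the square root of its F statistic. CPM were scaled by TMM, and replicate differences used log2 CPM with a prior count of 2. The fit was run on simulated data in which both groups had the same spread. The simulation therefore does not cover the unequal spread of the 2 groups here. The other settings tried were upper-quartile normalization, DESeq2 1.42.0, its size factors in edgeR, no filter, at least 10 counts in every library, the replicate number as a block, and leaving out each library. Near-identical sequence was searched with BLAST+ 2.17.0. The 3′ UTR windows came from 1 transcript per gene. DDX4-IP was not analysed here.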

Additional observations from a re-analysis of the deposited data

How the results depend on the processing

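Under every alternative that kept all 4 libraries, 0 cyclin or CDK genes passed both thresholds. At an unadjusted p under 0.05, DESeq2 gave 2 higher and 4 lower of 65 genes, and no filter 6 and 2 of 65. DESeq2's size factors gave 2 and 3 of 63, and upper-quartile normalization 3 and 6 of 63. At least 10 counts in every library gave 7 and 3 of 55. The shares of all genes at this p were not taken for any alternative, so these counts cannot be set against a background. Over all genes, the 102 higher calls became 160 with DESeq2, 103 with its size factors, 20 with upper-quartile normalization, 283 with no filter (and 24 lower) and 29 with at least 10 counts. DESeq2 moved the median log2 fold change to 0.0177 over all cyclin and CDK genes, 0.49 for cell-cycle kinases and 0.0177 for other kinases, and its size factors in edgeR to -0.0107, 0.45 and -0.0188. These size factors shifted the median of all genes by -0.13, to -0.14, and left 31 of the 63 values above 0 and 32 below. Ccnb3 turned to 0.0231 with at least 10 counts and Ccnyl1 to -0.0107 with DESeq2's size factors. With the replicate number as a block, 0 genes were called, with 4 higher and 1 lower at an unadjusted p under 0.05, while the calls over all genes went from 102 to 274 higher and from 0 to 3 lower. Over the genes tested, the deviations of same-numbered libraries from their group means had a correlation of 0.126. With 2 libraries a group, replicate 2 mirrors replicate 1, so this value cannot settle whether libraries are paired. No source links same-numbered libraries, so they share a number and are not taken as pairs.

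When each library was left out in turn, the calls ranged from 0 to 11 higher and from 0 to 10 lower. The median log2 fold change ranged from 0.00964 to 0.27 over all cyclin and CDK genes, -0.52 to -0.07 for cell-cycle cyclins, 0.42 to 1.12 for transcription cyclins, 0.09 to 0.31 for other cyclins, 0.47 to 0.79 for cell-cycle kinases, -0.22 to 0.28 for transcription kinases, -0.31 to 0.16 for other kinases, 0.27 to 1.37 for INK4 inhibitors, -0.59 to 0.35 for CIP/KIP inhibitors with Cdkn3 and -0.35 to 0.76 for associated proteins. Signs turned for Ccnb1ip1 (-0.55 to 1.52), Ccna1 (-1.23 to 0.14), Ccnb1 (-0.40 to 0.98), Ccnb3 (-0.45 to 0.26), Ccnd2 (-0.64 to 0.46), Cdkn1a (-1.14 to 0.44), Cdkn1b (-0.68 to 0.27), Cdkn2c (-0.68 to 0.47) and Ccny (-0.33 to 0.81). Of the 32 named genes, 22 kept their sign under every alternative. The cause of these moves was not tested. For genes near 5 CPM, 1 count was worth up to 0.230 CPM, and the part of depth in these moves was not tested.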

Other observations

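The 63 cyclin and CDK genes tested had a median of 4083 annotated exon bases, beside 4519 over all genes tested, and a median GC content of 48.7%, beside 49.4%. Across these genes, which are not independent replicates and share the same 4 libraries, the fold change had a Pearson correlation of -0.0495 with GC content and -0.0137 with the logarithm of length. Over all genes tested the correlations were -0.145 and -0.0792.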
